A study of Homo sapiens with 8 samples.

Results

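The transcripts described here are those of 6 genes, SENP6, PHIP, CADPS2, GPHN, C8orf4 and FAM127A, on which the strongest listed QKI7 peak had a lower fold after METTL1 knockout than with a control guide. They were picked for that difference, so their folds in the 2 conditions are a description and carry no test. Every deposited peak under these gene names was taken: 39 peaks of the 42083 in the 4 peak lists, for 6 of 6520 named genes. Peaks of a gene were joined into 1 site where they shared at least 1 base on the same chromosome and strand. This gave 11 sites, which separate a lower listed fold at one place from a place with no listed peak.

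All samples came from HepG2, a liver cancer line of human origin, with Cas9 and a lentiviral 3 x Flag-QKI7 transgene. The knockout cells received a guide against METTL1 (sgMETTL1) and the controls a guide named sgNS. Both conditions therefore overexpress the tagged protein, and GFP-positive cells were used for both. Flag immunoprecipitated (IP) RNA and input RNA were sequenced in 2 replicates of each condition, 8 samples in all, and each peak list comes from 1 IP sample over its own input. The sources used here do not say whether replicates were separate cultures or whether the knockout was 1 clone. The sgMETTL1 lists held 10095 and 9388 peaks, and the sgNS lists 11562 and 11038. METTL1 and WDR4 had no peak in any of the 4 lists, so the knockout cannot be checked from these lists. Of 8 hepatocyte markers, FGB, SERPINA1 and APOB had a peak in all 4 lists, 0 of 4 fibroblast markers had one, and of 5 blood markers LYZ did. A peak list does not measure expression, so these markers check the cell type only weakly.

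QKI7 is a splice isoform of Quaking, a protein of the STAR family that binds single-stranded RNA through a KH domain and recognises a short bipartite motif. It acts in splicing, mRNA stability and translation, and its isoforms differ in their C-terminal tails and in where they sit in the cell. METTL1 is the catalytic subunit, with WDR4, of the enzyme that places 7-methylguanosine inside tRNAs and some other RNAs. The series asked whether METTL1 alters how QKI7 binds its transcripts. The 6 genes have separate known roles. SENP6 encodes a protease that trims SUMO chains, and PHIP a bromodomain and WD-repeat protein that serves as a substrate receptor of CUL4 ubiquitin ligases. CADPS2 encodes a protein that primes dense-core vesicles for release, and GPHN gephyrin, the scaffold of inhibitory synapses that also makes molybdenum cofactor. C8orf4, now named TCIM, encodes a small regulator of Wnt signalling, and FAM127A, now named RTL8C, a small protein derived from a retrotransposon Gag gene.

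The fold of a peak is the authors' ratio of IP over input. No source states a scale shared by the lists, so a fold is given beside its place within its own list, as a percentile where 0 is the strongest peak and 100 the weakest. A ratio does not separate fewer IP reads from more input reads. The amount of each transcript was not measured here. Coordinates are 1-based on GRCh38, and distances run to the 3' end of the gene's span in RefSeq (GRCh38.p14). Only gene spans were at hand, so exons, introns and UTRs are not assigned. No sequence of these sites was at hand either, and none is printed. Sites are numbered from the 3' end of each transcript.

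Different patterns of listed peaks stood behind the lower gene-level folds. A list gives no value where it has no peak, so an unlisted site cannot be told from a site with a lower fold. In SENP6, PHIP, CADPS2 and C8orf4 the strongest sgNS site had no peak in either sgMETTL1 list, and the fold listed for sgMETTL1 came from another place in the transcript. In GPHN and FAM127A the same site was listed in all 4 lists, with a lower fold and a shorter covered length with sgMETTL1. For FAM127A the peaks formed 1 site through the peak of 888 bases in sgNS replicate 1. Without that list, its strongest sgNS site was in 1 of the 2 sgMETTL1 lists. Over all genes of the 4 lists, the strongest sgNS site was in neither sgMETTL1 list for 72 of 4113 genes (1.75%). The share of the 6 genes, 4 of 6, cannot be read against that background, because the genes were picked by the same folds. It also rests on taking the strongest site by fold. With the smallest p in place of the highest fold, the strongest sgNS site was in both sgMETTL1 lists for all 6 genes, and in neither for 36 genes of the table.

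**Figure D1:**
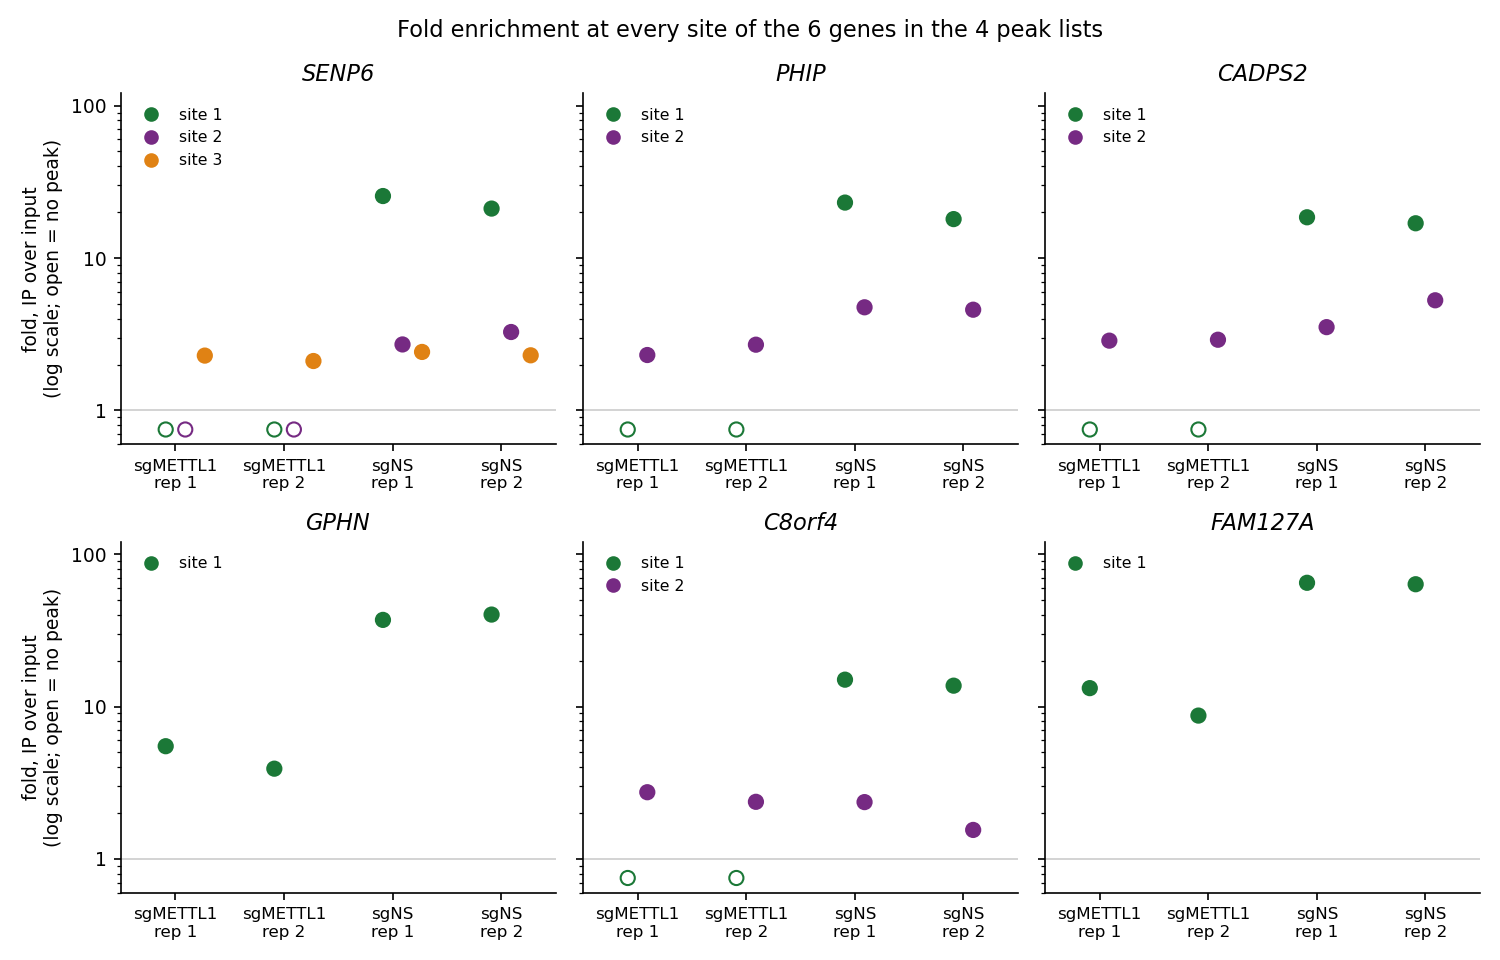
Fold enrichment (IP over input, log axis) of the strongest peak of each site in the 2 sgMETTL1 and 2 sgNS lists, with 1 panel per gene; open circles mark a list with no peak at that site. Site 1 of SENP6, PHIP, CADPS2 and C8orf4 is open in both sgMETTL1 lists, while GPHN and FAM127A keep their site at a lower fold.

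SENP6 lies on the plus strand of chromosome 6 (75601880 to 75718281). With sgMETTL1 each list held 1 SENP6 peak, and with sgNS each held 3. Site 1 lay 1192 to 1371 bases before the 3' end of the gene (75716910 to 75717089). It was in neither sgMETTL1 list and had folds of 25.5 and 21.1 with sgNS, at the percentiles 7.76 and 9.84, with a -log10 p of 4.81 and 4.05. The peaks were 151 and 150 bases long and shared 121 bases. Site 2, 2417 to 2626 bases before the 3' end, was also in neither sgMETTL1 list and was weak with sgNS, at 2.71-fold and 3.27-fold.

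Site 3 of SENP6 was the 1 site listed in all 4 lists. It joined 2 or 3 exon blocks more than 51 kb upstream (75659361 to 75666875). Its folds were 2.29 and 2.11 with sgMETTL1, against 2.42 and 2.3 with sgNS. The -log10 p of site 3 was 20.2 and 16.2 with sgMETTL1, and 33.8 and 31.5 with sgNS, above that of site 1. The folds of the groups did not overlap, but the gap between them was small: the log2 difference was -0.10, with SDs of 0.08 for sgMETTL1 and 0.05 for sgNS (n = 2 lists each). The median over all sites of the 4 lists was -0.22. The gene-level fold of SENP6 with sgMETTL1 is therefore that of site 3, a place whose fold was nearly as low with sgNS.

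PHIP lies on the minus strand of chromosome 6 (78934419 to 79078254). Site 1 covered the last 391 bases of the gene span (78934419 to 78934809). It had no peak with sgMETTL1 and folds of 23.1 and 18 with sgNS, with a -log10 p of 4.31 and 6.48. The sgNS peaks of replicates 1 and 2 shared only 31 bases, of 151 and 271. With 50% reciprocal overlap they were not 1 site, and the strongest place was then site 2, matched in 1 of 2 sgMETTL1 lists. Site 2, 1469 to 2009 bases from the 3' end, was in all 4 lists. Its folds were 2.31 and 2.7 with sgMETTL1, against 4.75 and 4.58 with sgNS, a log2 difference of -0.90 with SDs of 0.16 and 0.04 (n = 2 lists each). The peaks of site 2 covered 91 and 301 bases with sgMETTL1 and 511 and 541 bases with sgNS. PHIP thus combined a 3' site with no listed sgMETTL1 peak with a lower fold and a shorter peak at the next site.

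CADPS2 lies on the minus strand of chromosome 7 (122318411 to 122886460). Site 1, 283 to 402 bases from the 3' end (122318694 to 122318813), had no peak with sgMETTL1. With sgNS it stood at 18.5-fold and 16.9-fold over 90 and 120 bases. Its evidence was the weakest of the 11 sites in the sgNS lists, with a -log10 p of 3.35 and 3.14. Site 2, which began 1391 bases from the 3' end, was listed at 2.87-fold and 2.91-fold with sgMETTL1, against 3.52-fold and 5.28-fold with sgNS. The log2 difference there was -0.58, with SDs of 0.01 and 0.41 (n = 2 lists each), so the spread between the sgNS lists was nearly as large as the difference. Site 2 covered 151 and 91 bases with sgMETTL1 and 361 and 510 bases with sgNS.

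C8orf4 is a gene of 1829 bases on the plus strand of chromosome 8 (40153482 to 40155310). Its site 1 ended 2 bases before the 3' end of the gene span and reached 269 bases upstream of it. It had no peak with sgMETTL1, and folds of 15 and 13.7 with sgNS, at the percentiles 17 and 17.3, with a -log10 p of 5.24 and 6.24. Site 2, 685 to 1041 bases from the 3' end, ran the other way: its strongest folds were 2.74 and 2.37 with sgMETTL1, against 2.36 and 1.55 with sgNS. The log2 difference was 0.41, with SDs of 0.15 and 0.43 (n = 2 lists each). The lower sgMETTL1 fold, 2.37, lay next to the higher sgNS fold, 2.36. The -log10 p of site 2 was lower with sgMETTL1, at 4.86 and 6.17, against 27 and 6.84 with sgNS. C8orf4 is the 1 gene of the 6 whose remaining site had higher folds with sgMETTL1, although its gene-level fold was lower.

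GPHN lies on the plus strand of chromosome 14 (66508147 to 67735355) and had 1 site, at 67181093 to 67181808, 553547 to 554262 bases before the end of the RefSeq span, which covers all its transcripts. Its strongest folds were 5.49 and 3.91 with sgMETTL1, against 37 and 40.1 with sgNS. In their lists these folds stood at the percentiles 41.6 and 55.5 with sgMETTL1, and at 4.27 and 3.39 with sgNS. The log2 difference was -3.06, with SDs of 0.35 and 0.08 (n = 2 lists each). In both sgNS lists the peak was the same 716 bases. With sgMETTL1 replicate 1 listed 2 pieces of 270 and 269 bases, and replicate 2 listed 1 piece of 269 bases. The GPHN site had a -log10 p of 25.1 and 10.5 with sgMETTL1 and of 73.6 and 54.8 with sgNS, the highest of the 11 sites in both sgNS lists.

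FAM127A is a gene of 1192 bases on the plus strand of chromosome X (135032355 to 135033546). Its single site spanned 135032658 to 135033545, nearly to the 3' end. The strongest folds were 13.2 and 8.72 with sgMETTL1, against 64.8 and 63.4 with sgNS, a log2 difference of -2.58 with SDs of 0.42 and 0.02 (n = 2 lists each). The peaks did not have the same shape in any pair of lists. With sgMETTL1 the site was 3 pieces of 237, 89 and 208 bases in replicate 1 and 1 piece of 326 bases in replicate 2. With sgNS it was 1 peak of 888 bases in replicate 1, and 2 peaks of 297 and 267 bases in replicate 2. The strongest sgNS peak of replicate 2, next to the 3' end, met a peak of sgMETTL1 replicate 1 at 5.59-fold and none of sgMETTL1 replicate 2. At this 3' end FAM127A thus also held a place that 1 of the 2 sgMETTL1 lists did not list. FAM127A has near-identical paralogs, FAM127B and FAM127C, that had no peak in any of the lists. How the authors' pipeline assigned reads shared among them is not given in the sources used here, so the values of FAM127A are uncertain.

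**Figure D2:**
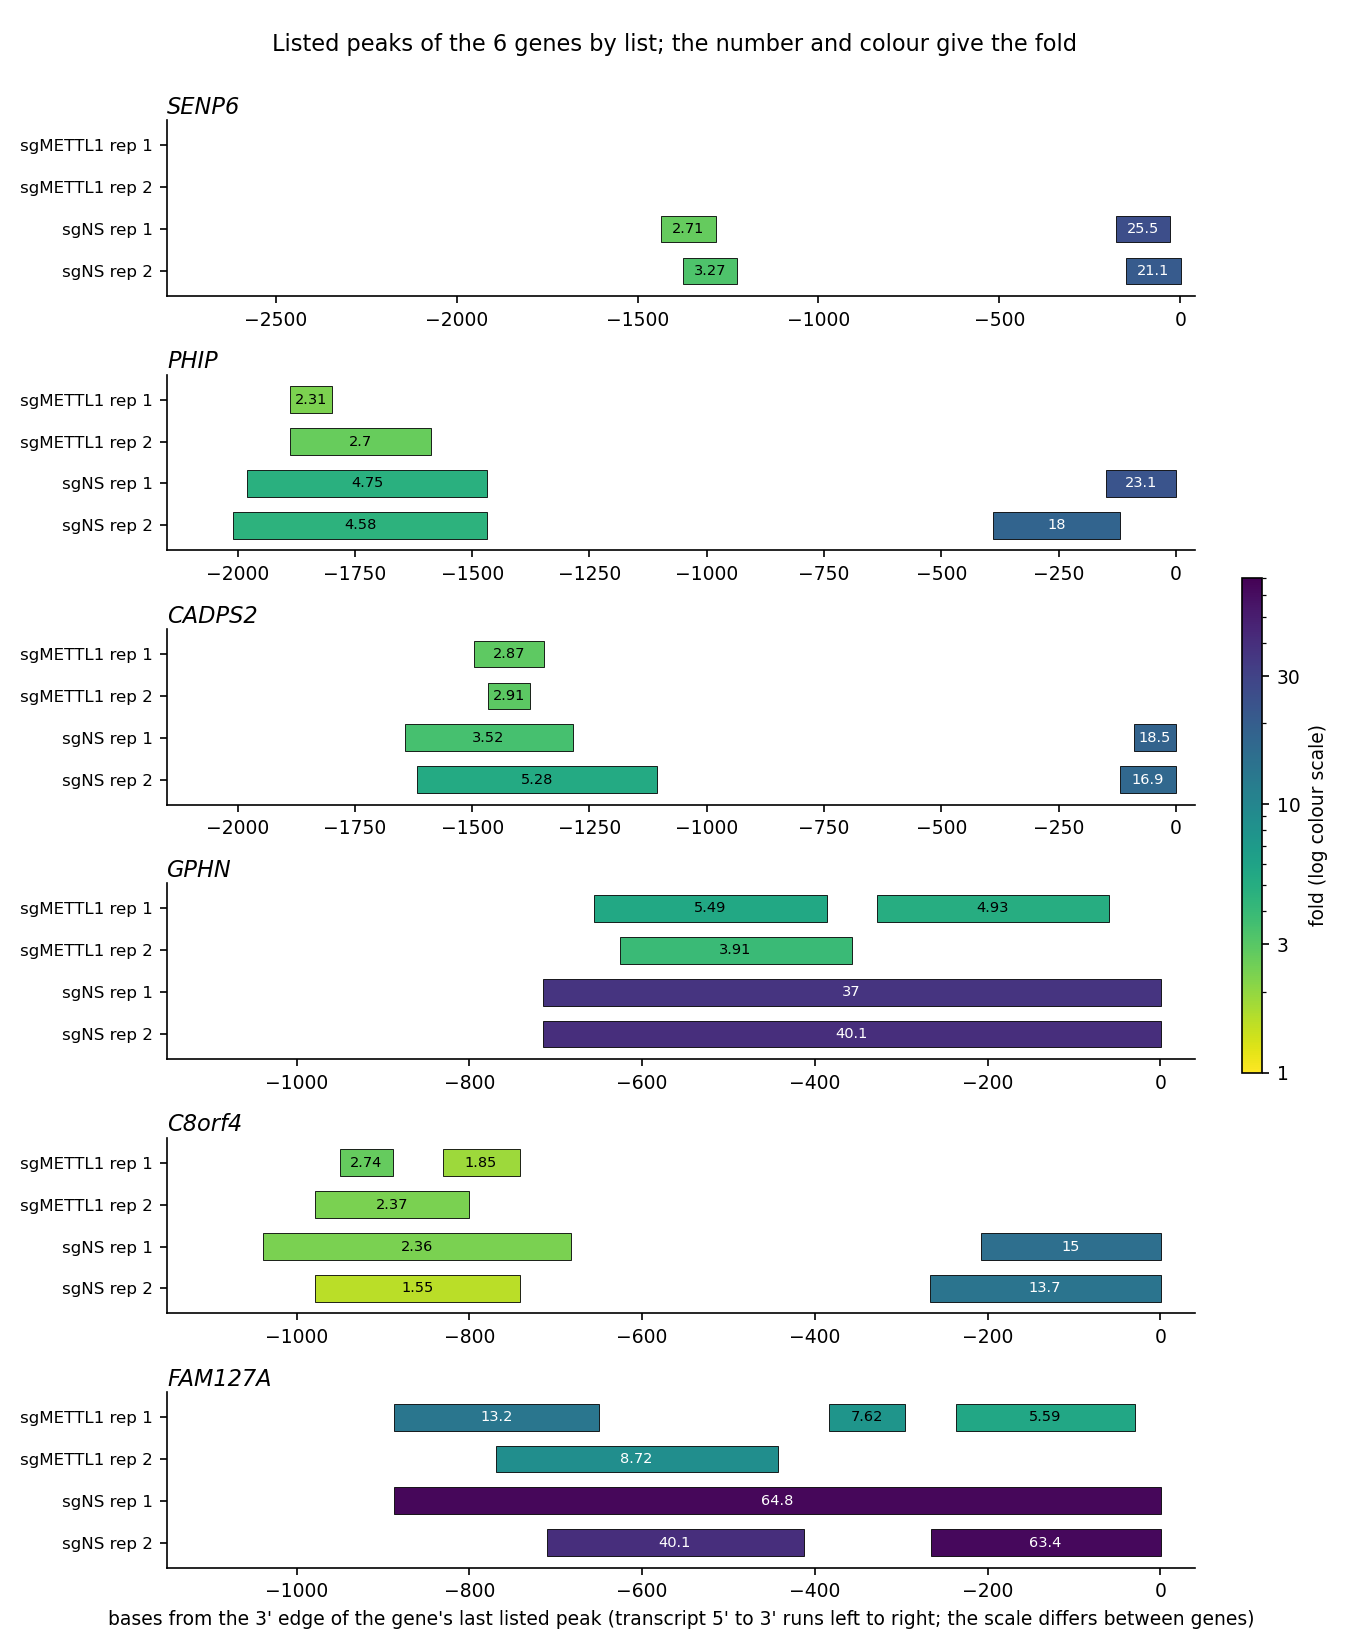
Listed peaks of each gene as boxes, by list, along the transcript in bases from the 3' edge of the gene's last listed peak; the number and the colour (log scale) give the fold. Site 3 of SENP6 and a block of 3 bases of CADPS2 site 2 lie outside the window. The right-hand peaks of SENP6, PHIP, CADPS2 and C8orf4 are present only in the 2 sgNS rows, and the GPHN peak of 716 bases stands against pieces of 269 or 270 bases with sgMETTL1.

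Of the 6 sites listed in all 4 lists, 1 in each gene, 5 had both sgMETTL1 folds below both sgNS folds, and 1, in C8orf4, had both above. Over all 6003 sites of the 4 lists, 38.7% were below in this way and 9.9% above. The covered length was shorter in both sgMETTL1 lists at all 6 sites, against 49.1% of all such sites. At GPHN and FAM127A the folds of the site are those by which the genes were picked. The 6 sites are thus a description and cannot be read against these shares. Ranks within the lists separate the 6 sites further. When the strongest fold of each site was turned into a normal score of its rank, GPHN differed by -1.67 and FAM127A by -1.38, the 4th and 11th lowest of 6003 sites. PHIP differed by -0.67 and CADPS2 by -0.33. SENP6 differed by 0.08 and C8orf4 by 0.85. Single sgNS lists moved some of these values. FAM127A differed by -0.94 without replicate 1 of sgNS and by -1.38 without replicate 2. CADPS2 differed by -0.61 without replicate 1 of sgNS and by -0.06 without replicate 2. C8orf4 differed by 1.30 without replicate 1 of sgNS and by 0.36 without replicate 2. SENP6 differed by 0.05 without replicate 2 of sgNS and without replicate 2 of sgMETTL1. PHIP differed by -1.25 when peaks under 2 times the list's smallest fold were left out. Limma found 0 of the 6003 sites at an FDR of 5%. At an unadjusted p under 0.05 it gave 628 sites, of which 303 (5.05%) were lower and 325 (5.41%) higher. On log2 folds these were 633 and 159.

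At gene level the score differences of the strongest fold were -2.39 for SENP6, -2.06 for PHIP, -1.77 for GPHN, -1.70 for C8orf4, -1.70 for CADPS2 and -1.50 for FAM127A. These were the 2nd, 3rd, 5th, 6th, 7th and 12th lowest of the 4150 genes in all 4 lists. The median over those genes was -0.02. Here too limma found 0 genes at an FDR of 5%. At an unadjusted p under 0.05 it gave 408 genes, of which 196 (4.72%) were lower and 212 (5.11%) higher. On log2 folds, where the median was -0.24, these were 382 and 118. Both sgMETTL1 folds were below both sgNS folds in all 6 genes. Of the 4150 genes, 37.7% were below in this way and 10.4% had both above. The 6 genes were picked by these folds. Their places in the order and their folds are thus a description and cannot be read against these shares. For SENP6 the difference went with a change of the listed site, since at its shared site 3 the score differed by 0.08. With the mean over a gene's peaks in place of its strongest, the differences were -1.08 for SENP6, -1.11 for CADPS2 and -0.80 for C8orf4. With equal numbers of top peaks by p, site 1 of CADPS2 was no longer among them, and its gene-level difference was -0.29.

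**Figure D3:**
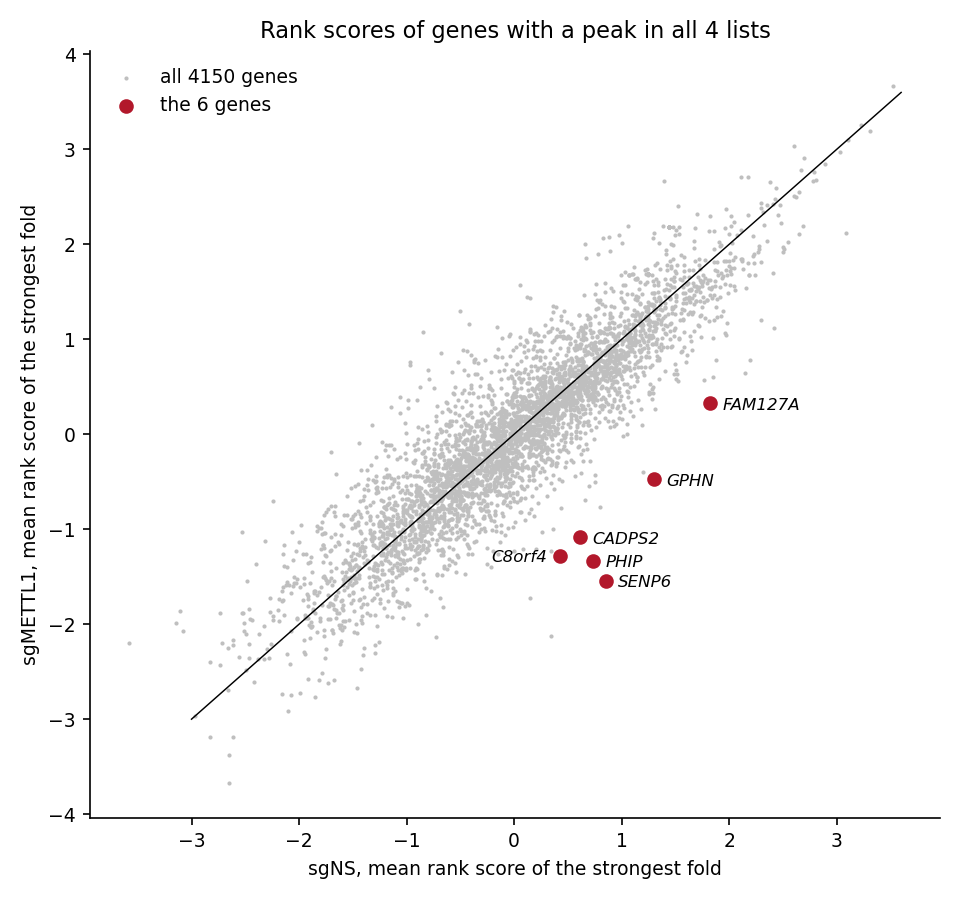
Mean rank score of the strongest fold over the 2 sgMETTL1 lists (vertical) against that over the 2 sgNS lists (horizontal), 1 point per gene of all 4 lists; the line marks equal scores. The 6 genes, in red, lie below the line, from -2.39 for SENP6 to -1.50 for FAM127A.

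Read numbers could be modelled for 3 of the 5 missing sites, site 1 of SENP6, CADPS2 and PHIP. In each list many folds of short peaks were whole multiples of a step, within the rounding of the listed fold, 3.05 and 2.78 in the sgMETTL1 lists and 2.31 and 2.11 in the sgNS lists. A binomial model with 1 input read gives such multiples, the step being the input over the IP read total. Site 1 of SENP6 stood at 11 and 10 steps, and site 1 of CADPS2 at 8 and 8. Model and listed p were taken to fit within 25% for the 6 genes. For SENP6 the model's p was 1.64e-05 and 9.11e-05, against 1.5e-05 and 8.9e-05 as listed. For CADPS2 it was 0.000452 and 0.000729, against 0.00045 and 0.00072. The CADPS2 peaks were among the short peaks by whose folds and p the steps were chosen, so their fit is partly built in. For PHIP site 1, 10 IP reads with 1 input read and 17 with 2 gave 4.99e-05 and 3.43e-07, against 4.9e-05 and 3.3e-07 as listed. In this model these folds rest on 1 or 2 input reads. The folds of C8orf4 site 1 were at no whole step (6.48 in both lists), nor were those of SENP6 site 2 (1.17 and 1.55), and no read number was fitted to either. Among all peaks of at most 300 bases at 2 or more whole steps whose listed p was within 5% of the model with 1 input read, the fewest IP reads were 6 in either sgMETTL1 list, which is a fold of 18.3 or 16.7, and 6 and 7 in the sgNS lists.

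GPHN was different. Its sgNS folds also stood at whole steps, 16 and 19, but the listed p of 2.5e-74 and 1.6e-55 was far smaller than the model's 5.74e-08 and 5.92e-09 for that many IP reads with 1 input read. The model with 1 input read therefore does not describe this peak. The sgNS folds of FAM127A stood at 28 steps in replicate 1 and at 19 and 30 in replicate 2, with a -log10 p of 14.4, 11.7 and 19.4. For these the model with 1 input read gave 5.51e-14, 5.92e-09 and 3.42e-14, against 4e-15, 2e-12 and 4e-20 as listed. It therefore does not describe the FAM127A peaks either.

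The share of sites not listed on the other side depended on the evidence behind them. Of all sites of both sgMETTL1 lists, 2.7% were in neither sgNS list, and of all sites of both sgNS lists, 12.7% were in neither sgMETTL1 list. Among sites of both sgNS lists with a mean -log10 p under 4, where CADPS2 site 1 lies at 3.25, 46.8% were in neither sgMETTL1 list. Between 4 and 6 it was 36.4%, and there lie site 1 of SENP6 (4.43), PHIP (5.39) and C8orf4 (5.74). Between 6 and 10, where SENP6 site 2 lies, it was 22%. It was 8.72% between 10 and 20, 1.17% between 20 and 50, and 0.0403% at 50 or more, where GPHN lies. The 5 missing sites thus lie in the classes where sgNS sites were most often in neither sgMETTL1 list.

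Thinly supported sites were also often missing between replicates of one condition. Of sites of replicate 1 of sgMETTL1 with a -log10 p of 4 to 6, 44.3% were not in replicate 2, and of those of replicate 2, 37.4% were not in replicate 1. With sgNS these shares were 42.7% and 31.6%. Such shares set 1 list against 1 list. The shares between the guides need a peak in both lists of one guide and in neither list of the other. The 2 kinds of share are therefore not comparable in size. In the reverse direction between the guides, sites of both sgMETTL1 lists were in neither sgNS list for 17.6% under 4 and 6.58% between 4 and 6. In the next classes this share was 1.72%, 0.443% and 0.252%, and it was 0% at 50 or more. The sgMETTL1 lists were the shorter ones, and the part of that difference in the missing sites was not tested.

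**Figure D4:**
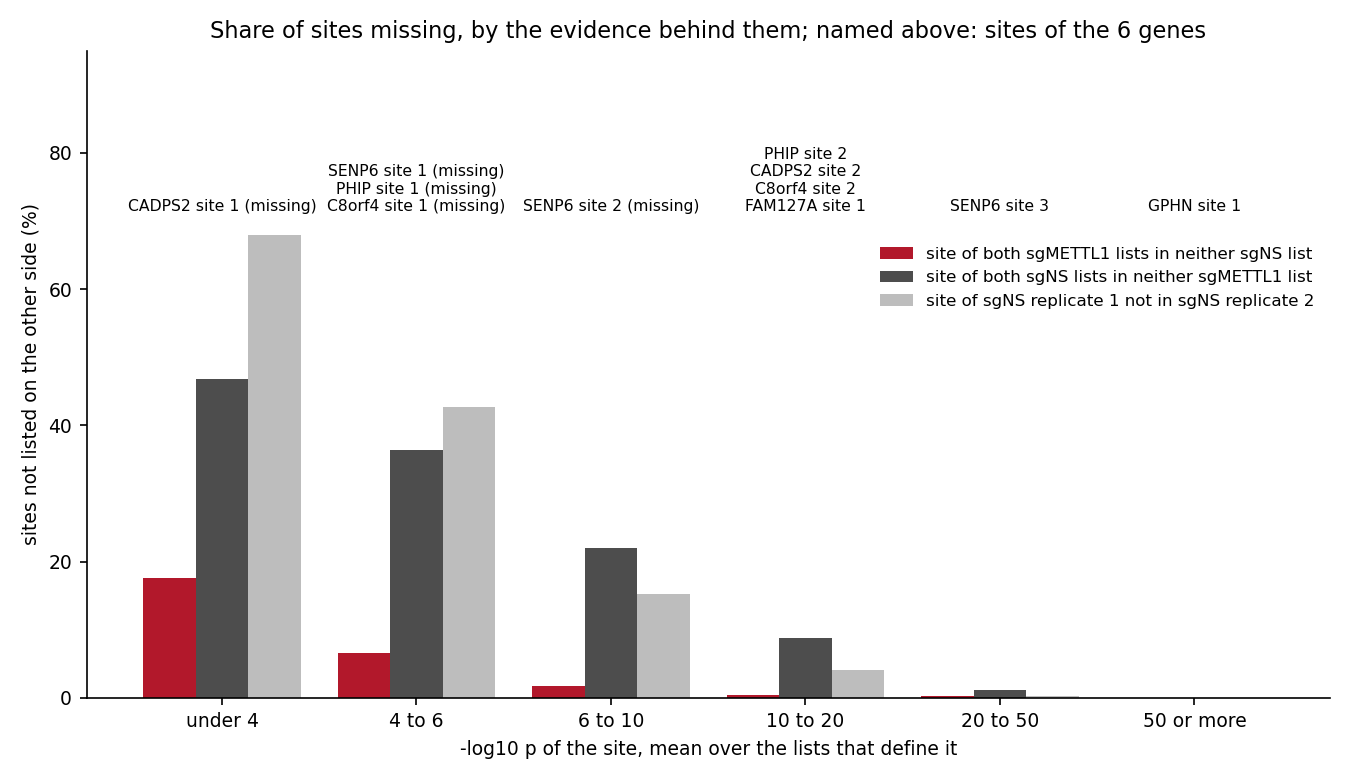
Percentage of sites not listed on the other side, by the mean -log10 p of the site in the lists that define it, for sites of both sgMETTL1 lists, of both sgNS lists, and of replicate 1 of sgNS against replicate 2. The last sets 1 list against 1 list, a looser rule than 2 lists against 2. The names above the bars place the 11 sites of the 6 genes, and the 5 missing ones stand in the first 3 classes, where 46.8%, 36.4% and 22% of sgNS sites were in neither sgMETTL1 list.

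Genes whose 4 rank scores lay closest to those of the 6 were found by Euclidean distance over the 4 lists. GDF7, a secreted growth factor gene, was closest to SENP6 (distance 0.954) and C8orf4 (0.481). HSF2, a heat shock transcription factor gene, was closest to PHIP (0.8) and CADPS2 (0.53). ZNF770 was closest to FAM127A (0.516). SLC4A7, a bicarbonate transporter gene, was among the 3 closest to GPHN (0.832). HSF2 stood at 2.81-fold and 3.28-fold with sgMETTL1 and at 13.1-fold and 10.6-fold with sgNS. SLC4A7 stood at 7.31-fold and 7.4-fold with sgMETTL1 and at 32.4-fold and 25.4-fold with sgNS. The strongest sgNS site of SLC4A7 was in neither sgMETTL1 list, and neither list held that of the kinase gene AAK1, the next after HSF2 for CADPS2. For GDF7 and ZNF770 it was in both sgMETTL1 lists, and for HSF2 in 1.

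Genes of the pathways around the 6 were ranked in both directions. Over all names the sgNS lists held more genes, 5570 and 5359, against 5091 and 4981 in the sgMETTL1 lists. Of 25 SUMO pathway genes, 9 had a peak in both sgMETTL1 lists and 11 in both sgNS lists. Without SENP6, 7 were in the gene table, 4 lower and 3 higher, with a median of -0.09 and 0 called. RNF111, a ligase that reads SUMO chains, stood at 74-fold and 66.4-fold with sgMETTL1 and 44.8-fold and 57.6-fold with sgNS. The SUMO protease gene DESI1 stood at 8.13-fold and 11.1-fold against 23.1-fold and 15.1-fold. The strongest sgNS site was in neither sgMETTL1 list for 1 of the 7, and, leaving the 6 genes out, for 0 genes of the other 6 lists, against 1.75% of all genes.

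Of 16 genes of the BRWD family and the CUL4 ligases, 6 were in both sgMETTL1 lists and 10 in both sgNS lists. The sgNS lists also held more genes over all names. Besides PHIP, 5 of the 16 were in the table, 2 lower and 3 higher, with a median of 0.14. BRWD3, a close relative of PHIP, stood at 40.5-fold and 57.9-fold with sgMETTL1 and at 71.5-fold and 63.4-fold with sgNS. BRWD1 stood at 11.2-fold and 9.25-fold against 19.7-fold and 8.45-fold, so its groups overlapped.

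Of 27 regulated exocytosis genes, 12 were in both sgMETTL1 lists and 12 in both sgNS lists, and besides CADPS2 10 were in the table, 5 lower and 5 higher, with a median of 0.02. RAB3B, a vesicle GTPase gene, stood at 36.9-fold and 42.9-fold with sgMETTL1 and 37.2-fold and 44.3-fold with sgNS. The priming factor gene UNC13B stood at 19.8-fold and 24.8-fold against 26.4-fold and 27-fold. CADPS, the paralog of CADPS2, had no peak in any list. For the molybdenum cofactor, MOCS1, MOCS2 and the enzyme gene AOX1 were in the table besides GPHN, 2 lower and 1 higher, with a median of -0.04. Of the gephyrin partners only DYNLL2 was there, at 3.39-fold and 3.01-fold with sgMETTL1 and 2.58-fold and 2.18-fold with sgNS.

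Of the 12 Wnt regulators, 6 were in the table besides C8orf4, 4 lower and 2 higher, with a median of -0.07. GSK3B, a kinase of the beta-catenin destruction complex, stood at 31.2-fold and 34.4-fold with sgMETTL1 and 39.1-fold and 40.4-fold with sgNS. Of the Gag-derived genes PEG10 was in the table, at 13.6-fold and 13.4-fold against 13.9-fold and 10.7-fold. In none of these 7 lists did limma call a gene at an FDR of 5%, and its whole gene table held 0 calls.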

How the data were processed

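Per the labels' protocols, UV cross-linked cells were lysed and sonicated, and stranded libraries were made after ribosomal depletion. Per the submitters' processing notes, STAR and GRCh38 were used; the sources used here name no peak caller and no settings. The fold is a ratio deposited by the authors, 1 list per IP and input pair. The p-value of each peak and its log10 forms, p and FDR, treated as a score, were deposited by the authors. No read counts were used, so depth is not known. The binomial model gives only the input over the IP read total of each list.

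Sites joined peaks of 1 gene name over exon blocks (at least 1 base). A gene's strongest sgNS site had the best mean rank score among sites of both sgNS lists. Scores of ranks among the genes or sites of all 4 lists were fitted with limma 3.58.1 in R 4.3.3 (two-sided, Benjamini-Hochberg), and the p-values reflect no more than the spread between lists, which may be technical. Python 3.11.15, pandas 2.3.3, numpy 2.4.6, scipy 1.17.1 and matplotlib 3.10.9 were used. Site building and the fit were tested on simulated data. The step of each list was chosen so that the most peaks of at most 130 bases fitted the model in fold and p. All 6 names matched RefSeq genes, 2 through older symbols. Named genes were the 6, up to 4 genes per list with the best mean rank, the 3 nearest genes of each, METTL1, WDR4 and QKI. Some genes that this rule names are not reported here. The members and lists were chosen with earlier results of these data known, and the classes of -log10 p, the steps and the lowest and highest 1% of genes were chosen after seeing the data. QKI had peaks in all 4 lists. Alternatives were log2 folds, a replicate block, other peak sets, other overlap rules, other choices of the strongest peak and leaving out each list.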

Additional observations from a re-analysis of the deposited data

How the results depend on the processing

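The count of genes whose strongest sgNS site was in neither sgMETTL1 list, 72, was 270 with 50% reciprocal overlap, where fewer peaks match by construction. It was 36 when the peak with the smallest p was taken as the strongest, and 162 to 166 when 1 list was left out, since a site then had to be absent from, or present in, fewer lists. For the 6 genes this count was 4, and 0 when the smallest p chose the strongest peak, because the shared site of each of the 4 genes had the smaller p. It was 4 without each list, 3 with equal numbers of top peaks by p, and 4 of the 5 genes that kept a site of both sgNS lists with 50% reciprocal overlap, GPHN then among the 4. The score difference of SENP6 at site 3, 0.08, was -0.10 on log2 folds, where the median over all sites was -0.22. Limma called 0 genes and 0 sites under every alternative run. With unadjusted p under 0.05 there were 329 to 509 genes and 486 to 792 sites. With the replicate number as a replicate block there were 0 calls and 380 genes and 595 sites with such a p. Same-numbered lists did not deviate together (Pearson r of -0.002 across genes and -0.001 across sites, which are not independent replicates). With 2 lists against 2, an exact permutation test cannot go below p = 0.33. Site 1 of SENP6, PHIP and CADPS2 fitted 17 or fewer IP reads, and the part of depth in the missing sites was not tested. Leaving out peaks under 2 times the smallest fold gave no gene-level value for SENP6 and no shared-site value for SENP6 and C8orf4. Equal numbers of top peaks gave no value for PHIP, and with 50% reciprocal overlap only SENP6 had a shared-site value.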

Other observations

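The 1% of genes with the lowest score differences, 42 genes from -2.47 to -1.04, include the 6 described above. Among these 42 the strongest sgNS site was in neither sgMETTL1 list for 10, in 1 for 6 and in both for 26. Of the 42 with the highest differences, from 1.15 to 1.92, 40 had a site in both sgMETTL1 lists, and for 4 of them the strongest was in neither sgNS list, for 1 in 1 and for 35 in both. Over all genes, the strongest sgNS site was in neither sgMETTL1 list for 72 of 4113 (1.75%). The strongest sgMETTL1 site was in neither sgNS list for 17 of 4051 (0.42%). The 2 tails were set by the same folds and are a description. The lowest gene of all was HMGB2, a chromatin protein gene, with strongest folds of 2.22 and 1.45 with sgMETTL1 and 16.2 and 10.6 with sgNS. RMI2, a subunit gene of the BLM dissolvasome, was the 4th lowest, with strongest folds of 1.84 and 2.18 against 8.84 and 12.3. The strongest sgNS site of HMGB2 and of RMI2 had a peak in both sgMETTL1 lists. The folds given are the highest of the gene in each list, not those of 1 site. TNRC6C, a gene of miRNA silencing, was the 8th, at 19-fold and 6.35-fold against 65.4-fold and 98.9-fold. HMGB2 and RMI2 were named after their values were seen.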
